A study of Mus musculus with 6 samples.

Results

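Of 7 caspase genes followed in mouse acute myeloid leukemia (AML) cells with wild-type *Phf6* or with *Phf6* deleted by Vav1-Cre, 2 initiator caspases passed the test, in opposite directions. *Casp2* was higher and *Casp8* was lower in *VC Phf6,RE9a* cells, both by less than 1.5-fold. *Casp9*, *Casp6*, *Casp1* and *Casp4* did not pass it, and *Casp12* was almost unread. The genes are the apoptotic caspases *Casp2*, *Casp6*, *Casp8* and *Casp9* and the inflammatory caspases *Casp1*, *Casp4* and *Casp12*, taken by name from the 54532 genes of the table.

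Caspases are cysteine proteases made as inactive precursors, so that the amount of transcript does not show how much active enzyme a cell holds. Initiator caspases are switched on inside large complexes. Caspase-8 is recruited to death receptors, caspase-9 to the Apaf1 apoptosome after cytochrome c leaves the mitochondria, and caspase-2 to the PIDDosome. Caspase-8 and caspase-9 start the activation of the executioner caspases, a class that includes caspase-6 and dismantles the cell. Caspase-1 is activated by inflammasomes and caspase-4, also known as caspase-11 in mice, by intracellular lipopolysaccharide, and both cut gasdermin D to open pores in the membrane. In myeloid cells the same enzymes therefore take part in apoptosis, in inflammatory death and in release of interleukin-1β.

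GFP+ leukemia cells were sorted from bone marrow in 3 *WT Phf6,RE9a* libraries (replicates 1, 2 and 3) and 3 *VC Phf6,RE9a* libraries (replicates 11, 12 and 13). Both groups carry floxed *Phf6* on the single X chromosome of male cells and the RUNX1-ETO9a fusion (RE9a), delivered with GFP by a retrovirus into fetal liver cells that were then transplanted into male recipients. The *VC* group also carries Vav1-Cre, which is active throughout the blood system and was used to delete *Phf6* there. The age of the mice at sampling, the transplant passage and whether each library is a separate leukemia are not given in the labels, and p-values then measure only the spread between these libraries, which may be technical.

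Total counts per library ran from 15675358 to 16817994. *Phf6* had 1044, 827 and 1142 counts in the *WT* libraries, against 388, 314 and 331 in the *VC* libraries, lower in every *VC* library (0.315-fold, edgeR adjusted p = 9.32e-05). Reads of *Phf6* thus remained in the *VC* libraries, and the counts are per gene, so that the deleted part could not be read by itself. Of 7 genes that mark myeloid leukemia cells, all were read in every library, and 3 were higher, 1 lower and 3 did not pass. The progenitor marker *Cd34* fell, with 3159, 11395 and 2807 counts in *WT* and 129, 543 and 120 in *VC* libraries (log2 fold change -4.63 ± 0.83 SE, edgeR adjusted p = 0.00347). *Itgam* (Mac-1), a surface marker of maturing myeloid cells, rose from 17, 19 and 78 counts to 333, 194 and 78 (log2 fold change 2.31 ± 0.68 SE, edgeR adjusted p = 0.0272). *Mpo* and *Cebpa*, a granule enzyme and a transcription factor of the granulocyte line, rose by 1.88 and 1.94 on the log2 scale (edgeR adjusted p = 0.0180 and 0.0103). In *VC* replicates 11, 12 and 13, *Mpo* had 2960, 2359 and 1515 counts and *Cebpa* 137, 98 and 60. Both, like *Itgam*, thus followed the order of the granulocyte genes described below, whose part in these values was not tested. *Ptprc* (CD45), *Spi1* (PU.1) and *Runx1* did not pass, with 180 to 961, 1122 to 1784 and 12132 to 14339 counts. Markers of other blood cells also moved between the groups. Of 7 genes of mast cells and basophils, 6 passed as lower, with sums of 10150 to 13781 CPM (counts scaled to library size by TMM) in *WT* and 2236 to 2825 CPM in *VC* libraries. *Cpa3* (6749 to 274 CPM) and *Kit* (2420 to 273 CPM) were the highest of the list in *WT* libraries. *Ms4a2* did not pass (1180 and 1076 CPM, edgeR adjusted p = 0.519). The list is not specific to these cells, because the study also used c-Kit, the product of *Kit*, as a marker among GFP+ leukemia cells. All 5 erythroid genes were higher, with sums of 1298 to 2005 and 4242 to 4761 CPM, as were the 4 tested of 5 B cell genes, at sums of only 0.611 to 1.10 and 8.50 to 24.6 CPM. None of 6 T cell genes had enough counts. The part of these cells in the caspase values was not tested, and in bulk RNA more cells of a type and more RNA per cell cannot be told apart. Genes were compared by edgeR's quasi-likelihood test on counts scaled by TMM, with Benjamini-Hochberg adjustment over the 14169 genes with enough counts and a threshold of 0.05. Each fold change is *VC Phf6,RE9a* over *WT Phf6,RE9a*. In this comparison 44.2% of all tested genes passed, 21.5% higher and 22.7% lower. With libraries scaled by total counts instead of TMM, the median log2 fold change of all genes shifted by 0.15 and the calls went from 3047 higher and 3213 lower to 4048 higher and 2474 lower.

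Among the 6 caspases with enough counts, 1 was higher and 1 lower, which is 2 of 6 against the 44.2% of all genes. The median size of the log2 fold change was 0.30 in these 6 genes and 0.44 over all genes tested. For 3 of the 6 (*Casp1*, *Casp2* and *Casp8*) the groups of 3 libraries did not overlap, against 57.3% of all genes. With 3 libraries a group, the smallest p of an exact two-sided permutation test on 1 gene is 0.1.

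**Figure D1:**
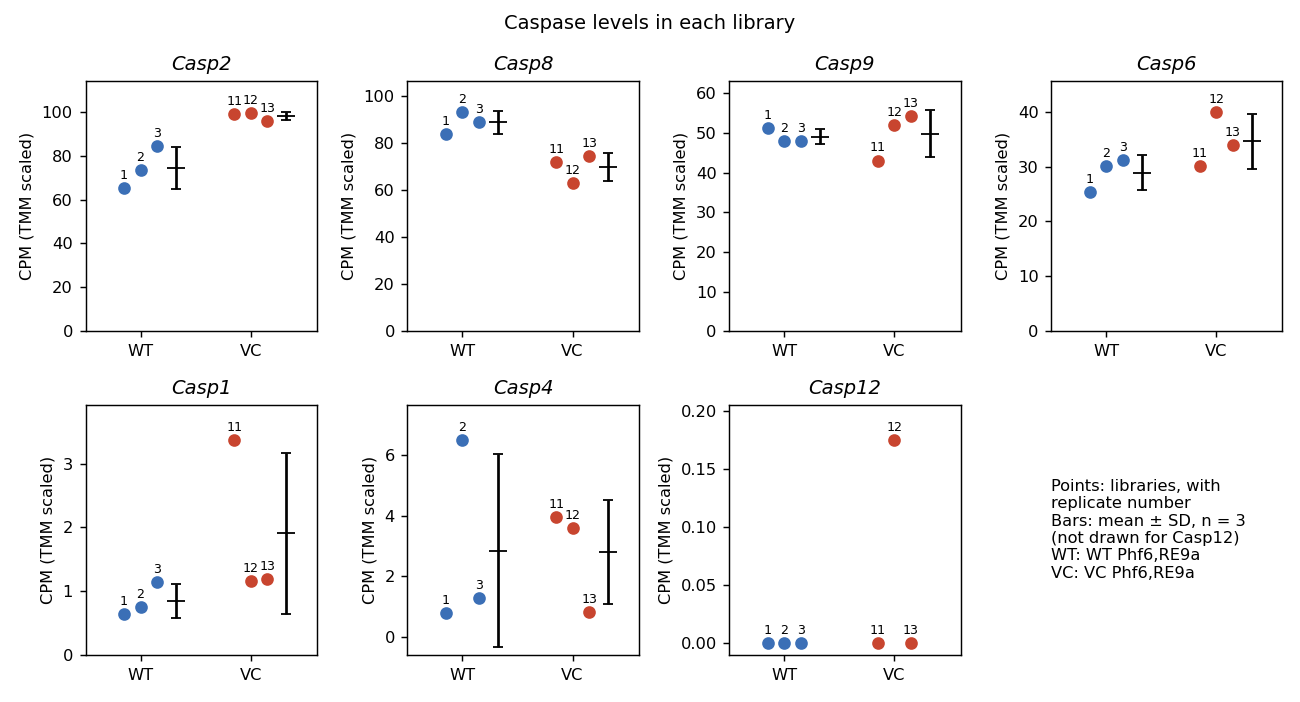
Level of each of the 7 caspases in each library, in TMM-scaled CPM on a linear axis, with replicate numbers above the points and black bars for mean ± SD (n = 3). *Casp2* sits higher in all 3 *VC Phf6,RE9a* libraries (96.0 to 99.6 CPM) and *Casp8* lower (63.2 to 74.7 CPM), while *Casp4* varies as widely within a group as between groups.

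*Casp2*, the initiator caspase of the PIDDosome, was the only one of the 7 caspases that passed the test as higher. Its counts were 1008, 1084 and 1393 in the *WT* libraries, against 1673, 1710 and 1615 in the *VC* libraries. The *VC* libraries lay close together and above every *WT* library, and the *WT* libraries were spread more widely. The level rose from 74.4 ± 9.47 to 98.1 ± 1.92 CPM (SD, n = 3), log2 fold change 0.40 ± 0.10 (SE, edgeR adjusted p = 0.0167), which is an increase of 31.8%. The gene lies on the plus strand of chr6:42264985-42282508 (GRCm38), and its exons overlap no other annotated gene. The study picked *Casp2* as an apoptosis-related gene from these same libraries, so its direction is not independent evidence. The call was lost when *VC* replicate 11 (edgeR adjusted p = 0.0560) or *VC* replicate 12 (edgeR adjusted p = 0.0577) was left out, with log2 fold changes of 0.40 and 0.39.

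The PIDDosome is formed by *Pidd1*, a p53-inducible scaffold, and *Cradd* (RAIDD), the adaptor that binds caspase-2. *Cradd* rose from 7.46 ± 1.69 to 12.9 ± 1.40 CPM (SD, n = 3), log2 fold change 0.79 ± 0.21 (SE, edgeR adjusted p = 0.0195). *Pidd1* was at 39.9 ± 6.82 and 43.9 ± 3.49 CPM (SD, n = 3) and stayed short of the threshold (edgeR adjusted p = 0.464). *Mdm2*, a p53 inhibitor that caspase-2 can cleave, fell from 108 ± 17.2 to 81.1 ± 8.75 CPM (log2 fold change -0.41 ± 0.13 SE, edgeR adjusted p = 0.0377). Of the 3 genes 1 was thus higher and 1 lower, against 44.2% called over all genes. Both calls were lost without *WT* replicate 1 and without *VC* replicate 13, and that of *Mdm2* also without *VC* replicate 12 and with scaling by total counts.

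*Casp8*, the initiator caspase of death receptors, went the other way. Its counts were 1293, 1376 and 1473 in the *WT* libraries, against 1221, 1084 and 1257 in the *VC* libraries. Each *VC* library lay under every *WT* library. The level fell from 88.8 ± 4.72 to 70.0 ± 6.05 CPM (SD, n = 3), log2 fold change -0.34 ± 0.09 (SE, edgeR adjusted p = 0.0198), so that it fell by 21.2%. *Casp8* too was among the genes the study picked from these libraries. The call was lost without *VC* replicate 11 (edgeR adjusted p = 0.0587), without *VC* replicate 12 (edgeR adjusted p = 0.0784), and with scaling by total counts (log2 fold change -0.20, adjusted p = 0.145), under which all genes shifted upwards by 0.15.

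The ratio of 2 genes within a library needs no scaling between libraries. The ratio of *Casp2* to *Casp8* counts was 0.780, 0.788 and 0.946 in the *WT Phf6,RE9a* libraries and 1.37, 1.58 and 1.28 in the *VC Phf6,RE9a* libraries. Every *WT* library thus held fewer *Casp2* than *Casp8* reads, and every *VC* library more. The exons of *Casp2* span 7057 bases and those of *Casp8* 2893, so a ratio over 1 does not mean more *Casp2* transcripts. Scaled by length (FPKM), *Casp8* stayed above *Casp2* in every library, at 21.7 to 25.3 against 13.3 to 14.0 in *VC* libraries. The *Casp2* to *Casp8* ratio and the other ratios below were chosen after the values were seen, and they carry no test.

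**Figure D2:**
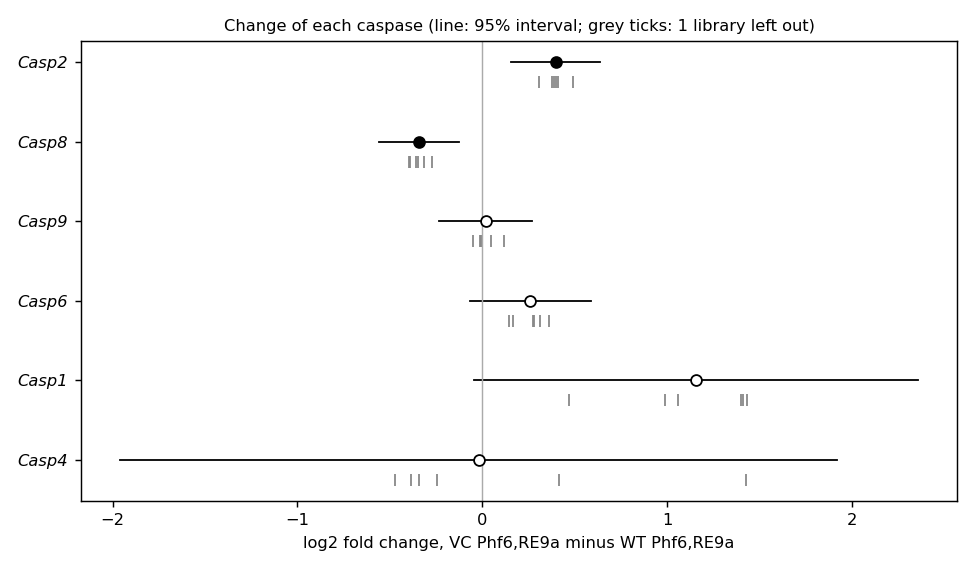
Log2 fold change (*VC Phf6,RE9a* minus *WT Phf6,RE9a*) of the 6 caspase genes with enough counts, with the 95% interval as a line and a filled circle where the adjusted p is under 0.05. Grey ticks give the value with each single library left out, which spread from -0.47 to 1.43 for *Casp4* and from 0.31 to 0.49 for *Casp2*.

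*Casp8* lies on the plus strand of chr1:58795374-58847503, next to *Cflar* (chr1:58711508-58758884), its catalytically inactive relative, whose product c-FLIP competes with caspase-8 at the receptor. *Cflar* fell from 177 ± 26.4 to 139 ± 3.68 CPM (log2 fold change -0.35 ± 0.12 SE, edgeR adjusted p = 0.0406). The call of *Cflar* was lost under 8 of 13 alternatives. Counts of *Casp8* per *Cflar* count were 0.476, 0.460 and 0.593 in *WT* and 0.512, 0.470 and 0.531 in *VC* libraries, so the range of the *VC* libraries lay within that of the *WT* libraries. The neighbour on the other side, *Trak2*, looked up after these values were seen, had 2520 to 2973 counts in *WT* and 5182 to 6291 in *VC* libraries.

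RefSeq (GRCm38.p6) places a start of *Casp8* inside the gene. Of 6 motifs searched on both strands in the 250 bases before to 50 bases after this start, only RUNX (TGTGGT), the binding motif of the RUNX1 part of the fusion, was found, once, at -164. It occurs in 16.8% of all 32851 promoter windows of this length, so that the match describes these letters and shows no binding. The site is printed because RUNX1-ETO9a drives both groups of cells, with the motif in capitals (chr1:58802326-58802355, plus strand, 5′ to 3′).
Casp8 RUNX: tgttttttcattTGTGGTtcctagatttta

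Of 11 death receptor genes around caspase-8, 10 were tested, and 2 were higher, 4 lower and 4 did not pass, against 44.2% called over all genes (median log2 fold change -0.26, against 0.01 over all genes). *Ripk3*, the kinase that starts necroptosis when caspase-8 is inactive, fell from 106 ± 10.1 to 50.9 ± 0.340 CPM (SD, n = 3), log2 fold change -1.06 ± 0.09 (SE, edgeR adjusted p = 0.000150). Counts of *Casp8* per *Ripk3* count were 0.745, 0.991 and 0.805 in *WT* and 1.43, 1.24 and 1.46 in *VC* libraries, without overlap. *Cyld*, a deubiquitinase that acts on RIPK1, was at 83.1 ± 3.87 and 82.4 ± 3.61 CPM and did not pass (edgeR adjusted p = 0.917).

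*Zbp1*, a nucleic acid sensor that engages RIPK3, had 1, 1 and 3 counts in *WT* libraries and 81, 64 and 35 in *VC* libraries. *Tnfrsf10b*, the mouse TRAIL receptor, had 19, 11 and 16 counts in *WT* and 2, 3 and 0 in *VC* libraries. Both are near the counting limit in one group, and no fold change is given for them. Looked up after the values were seen, *Tnfrsf1a* (TNF receptor 1) rose from 2.71 ± 0.741 to 11.97 ± 6.92 CPM (log2 fold change 2.13 ± 0.46 SE, edgeR adjusted p = 0.00787). Its *VC* counts were 326, 192 and 92 in replicates 11, 12 and 13, in the same order as the granulocyte genes described below, whose part in this value was not tested. *Ripk1*, its kinase partner, fell by 0.35 on the log2 scale (SE 0.08, edgeR adjusted p = 0.0118). *Fadd*, the adaptor that holds caspase-8, was at 16.3 ± 3.04 and 13.1 ± 1.06 CPM and did not pass (edgeR adjusted p = 0.199). The call of *Ripk1* was lost without *VC* replicate 12 and with scaling by total counts. The study had picked *Cflar*, *Ripk3*, *Ripk1* and *Tnfrsf1a*, as well as *Mdm2* and *Xbp1*, from these libraries.

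*Casp9*, the initiator caspase of the mitochondrial pathway, did not pass the test. Its counts were 789, 708 and 793 in the *WT* libraries, against 729, 891 and 914 in the *VC* libraries, and the groups overlapped. The level was 49.1 ± 1.85 and 49.8 ± 5.93 CPM (SD, n = 3). The log2 fold change was 0.02 ± 0.11 (SE, edgeR adjusted p = 0.902), with a 95% interval from -0.23 to 0.27. The gene lies on chr4:141793612-141815976, and 94 of its exon bases are shared with *Cela2a* and 94 with *Ctrc*, pancreatic protease genes on the other strand with 0 counts in every library.

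Its scaffold did pass. *Apaf1* had 2427, 2441 and 2655 counts in *WT* and 2119, 1991 and 2017 in *VC* libraries. It fell from 161 ± 4.06 to 120 ± 4.57 CPM (SD, n = 3), log2 fold change -0.42 ± 0.07 (SE, edgeR adjusted p = 0.00323), and kept the call under all 13 alternatives. Counts of *Casp9* per *Apaf1* count were 0.325, 0.290 and 0.299 in *WT* and 0.344, 0.448 and 0.453 in *VC* libraries, higher in each *VC* library.

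Of the 8 mitochondrial and apoptosome genes, 2 were higher, 3 lower and 3 did not pass, against 44.2% called over all genes (median log2 fold change 0.18). *Htra2*, a mitochondrial protease that relieves caspase inhibition, rose from 42.1 ± 4.81 to 72.7 ± 4.77 CPM (log2 fold change 0.79 ± 0.11 SE, edgeR adjusted p = 0.00106). *Bid*, which caspase-8 cuts to pass the signal to mitochondria, fell from 38.1 ± 2.11 to 25.5 ± 1.55 CPM (log2 fold change -0.58 ± 0.10 SE, edgeR adjusted p = 0.00319). *Xiap*, which inhibits caspase-9, was at 123 ± 3.41 and 138 ± 2.48 CPM (edgeR adjusted p = 0.101), and *Bak1*, a pore-forming BCL2 family member, at 75.3 ± 5.29 and 85.8 ± 4.01 CPM (edgeR adjusted p = 0.116). The study had picked *Htra2* and *Bid* from these libraries.

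*Casp6*, an executioner caspase that cuts lamin A, had 391, 444 and 516 counts in the *WT* libraries, against 509, 686 and 570 in the *VC* libraries. *VC* replicate 11 lay among the *WT* libraries on the CPM scale. The level was 28.9 ± 3.11 and 34.6 ± 5.002 CPM (SD, n = 3), log2 fold change 0.26 ± 0.14 (SE, edgeR adjusted p = 0.171), with a 95% interval from -0.07 to 0.59. The gene lies on chr3:129901425-129914103 and overlaps no other gene.

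Among 9 substrates of executioner caspases, 1 was higher, 3 lower and 5 did not pass, a share close to the 44.2% of all genes (median log2 fold change 0.15). *Parp1*, the DNA repair enzyme whose cleavage marks apoptosis, rose from 178 ± 20.7 to 361 ± 9.49 CPM (log2 fold change 1.02 ± 0.10 SE, edgeR adjusted p = 0.000246). *Lmna*, which encodes lamin A and C, fell from 659 ± 271 to 268 ± 35.7 CPM (log2 fold change -1.30 ± 0.28 SE, edgeR adjusted p = 0.00786). *Acin1*, a chromatin condensation factor, fell from 305 ± 12.2 to 139.6 ± 12.3 CPM (log2 fold change -1.13 ± 0.09 SE, edgeR adjusted p = 0.000118). The study had picked *Parp1* and *Lmna* from these libraries. These are levels of the substrates' transcripts, and cleavage was not measured.

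Compared per length of exon, in the FPKM that the authors computed, the 6 tested caspases ran from 0.210 (*Casp4*, *WT* replicate 1) to 32.01 (*Casp8*, *WT* replicate 2). In *WT Phf6,RE9a* cells *Casp8* was at 30.5 ± 1.499, *Casp2* at 10.5 ± 1.28, *Casp9* at 9.39 ± 0.406, *Casp6* at 5.14 ± 0.525, *Casp4* at 0.763 ± 0.849 and *Casp1* at 0.563 ± 0.173 FPKM (SD, n = 3). *Casp2* and *Casp9* overlapped in these cells, as did *Casp1* and *Casp4*. In *VC Phf6,RE9a* cells *Casp8* was at 23.9 ± 1.94, *Casp2* at 13.7 ± 0.344, *Casp9* at 9.45 ± 1.118, *Casp6* at 6.12 ± 0.909, *Casp1* at 1.26 ± 0.833 and *Casp4* at 0.746 ± 0.458 FPKM. There *Casp2* lay above *Casp9* in every library, and *Casp1* and *Casp4* again overlapped.

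The summed FPKM of the 7 caspases was 53.3, 59.1 and 58.1 in *WT* and 55.2, 54.5 and 55.9 in *VC* libraries, with overlap. Within this sum *Casp8* held 52.5% to 54.4% in *WT* and 39.8% to 45.3% in *VC* libraries, and *Casp2* held 17.4% to 20.4% and 23.9% to 25.7%. The lengths behind these FPKM equalled the merged exons of GENCODE M21 for all 7 genes.

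**Figure D3:**
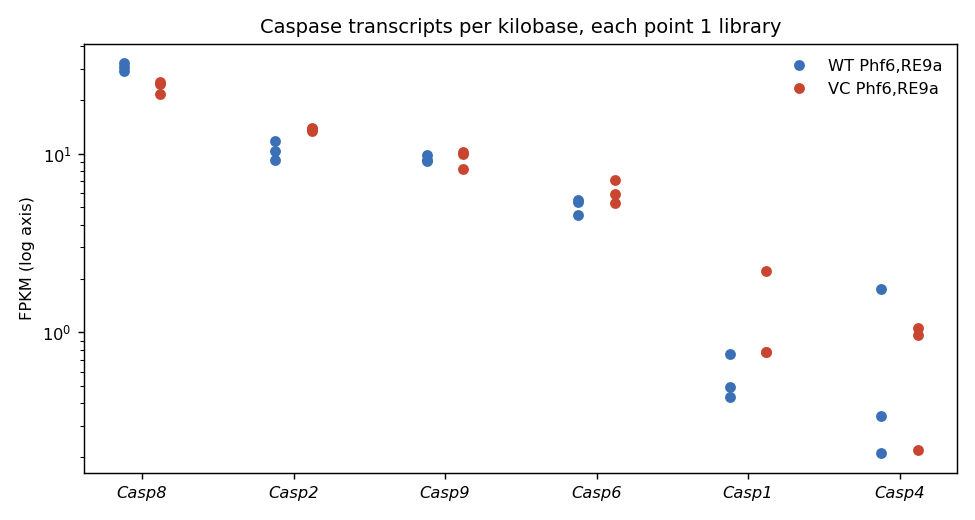
FPKM of the caspase genes on a log axis, each point 1 library, blue for *WT Phf6,RE9a* and red for *VC Phf6,RE9a*, ordered by the mean over all libraries. *Casp8* is the highest in every library, and *Casp1* and *Casp4* lie under 3 FPKM. *Casp12* is left out because 5 of its 6 values were 0.

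The inflammatory caspases lie side by side on the plus strand of chromosome 9, *Casp1* at chr9:5298517-5307265, *Casp4* at chr9:5308828-5336783 and *Casp12* at chr9:5345430-5373032, within 74.5 kb. All 3 were read at low levels. *Casp1*, the interleukin-1β converting enzyme, had 10, 11 and 19 counts in the *WT* libraries, against 57, 20 and 20 in the *VC* libraries. The groups did not overlap in CPM, but the highest *WT* library (1.15 CPM) and the lowest *VC* library (1.17 CPM) differed by about 1 read, and *VC* replicate 11 lay far above all other libraries. The log2 fold change was 1.15 ± 0.52 (SE, edgeR adjusted p = 0.107), with a 95% interval from -0.05 to 2.36, and it was 0.47 without *VC* replicate 11 (edgeR adjusted p = 0.443).

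*VC* replicate 11 also had the highest summed level of granulocyte genes. All 9 genes of a granulocyte maturation list, such as *S100a8* and *Camp*, passed as higher in the *VC* group, against 21.5% of all genes. Their summed level was 149 to 460 CPM in *WT* libraries and 3567, 2283 and 938 CPM in *VC* replicates 11, 12 and 13. Of 9 macrophage and dendritic cell genes 3 were higher and none lower, against 21.5% higher and 22.7% lower over all genes. Their sums were 45.2 to 57.6 CPM in *WT* and 57.2 to 87.4 CPM in *VC* libraries, highest in replicate 11. No gene of these lists was at 0 in all libraries. *Casp1* was at 3.37, 1.17 and 1.19 CPM in *VC* replicates 11, 12 and 13. Replicates 12 and 13 thus had nearly the same *Casp1* level and different granulocyte sums. The part of granulocytes, macrophages and dendritic cells in the *Casp1* values was not tested.

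*Casp4*, the sensor of intracellular lipopolysaccharide, differed more between libraries of a group than between groups. Its counts were 12, 96 and 21 in the *WT* libraries, against 67, 62 and 14 in the *VC* libraries. *WT* replicate 2 held the most and *WT* replicate 1 the fewest, an 8.36-fold range in CPM. The log2 fold change was -0.02 ± 0.84 (SE, edgeR adjusted p = 0.988), with a 95% interval from -1.96 to 1.92. Its direction turned without *WT* replicate 2 (1.43, adjusted p = 0.139) and without *VC* replicate 13 (0.41, adjusted p = 0.728), as well as with limma on FPKM and with scaling by total counts.

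*Nlrc4*, an inflammasome sensor looked up after the values were seen, also stood out in *WT* replicate 2, with 26, 181 and 19 counts in *WT* and 63, 36 and 33 in *VC* libraries. Of the 19 inflammasome genes, 9 were highest in replicate 2 among the *WT* libraries, 6 in replicate 1 and 4 in replicate 3. These numbers include genes near the counting limit, such as *Nlrp1a* (0, 5 and 3 counts in *WT* libraries) and *Il18* (1, 4 and 1). The same shares over all genes were not computed, so no conclusion is drawn from them.

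The promoter windows of the inflammatory caspases differ in one motif. A loose NF-κB motif (GGG and CC with any 5 bases between), present in 50.8% of all windows, was found in the window of *Casp1*, 6 times in each of the 2 overlapping windows of *Casp4* (some matches overlap, on both strands) and not in that of *Casp12*. One of the *Casp4* matches reads GGGGATTTCC, which, counted on both strands, occurs in 32 of 32851 windows (0.0974%). It begins at -93 and -104 from the RefSeq starts, and it is printed, with the *Casp1* match for comparison and the matches in capitals, because the study's question was NF-κB activity. The choice was made after the matches were seen, and neither match shows binding.
Casp4 kB (chr9:5308746-5308775, plus strand): atgagttacaGGGGATTTCCccacagcagt
Casp1 kB (chr9:5298349-5298378, plus strand, motif read on the other strand): cagagtctcaGGCCCAGCCCtgcagcagaa
None of the other motifs searched was found in these windows, namely the interferon response element (GAAA and GAAA with any 2 bases between), PU.1 (GAGGAAGT), RUNX (TGTGGT), AP-1 (TGANTCA) and C/EBP (TTGCNNCAA). They occur in 3.44%, 3.20%, 16.8%, 7.81% and 2.08% of all windows. NF-κB matches were also found once in the *Casp2* window and 2 times each in those of *Casp6* and *Casp9*.

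*Casp12*, an inflammatory caspase first linked to stress of the endoplasmic reticulum (ER), had 3 counts in *VC* replicate 12 and 0 in the 5 other libraries. A count of 0 allows up to 3 counts, which was at most 0.204 CPM in any library, so that no fold change is given. Of 8 ER stress genes 1 was higher, 2 lower and 5 did not pass, against 44.2% called over all genes (median log2 fold change -0.03). *Hspa5* (BiP), the main ER chaperone, was at 1518 ± 186 and 1509 ± 391 CPM (edgeR adjusted p = 0.9751), and *Atf4*, a stress transcription factor, at 707 ± 98.6 and 733 ± 60.4 CPM (edgeR adjusted p = 0.767). *Ddit3* (CHOP), a pro-apoptotic ER stress factor, fell from 147 ± 31.7 to 81.7 ± 25.1 CPM (log2 fold change -0.85 ± 0.23 SE, edgeR adjusted p = 0.0204). *Xbp1* fell by 0.44 on the log2 scale (SE 0.11, edgeR adjusted p = 0.0143). *Trib3*, an ATF4 and CHOP target, rose by 0.98 (SE 0.21, edgeR adjusted p = 0.00803). The call of *Ddit3* was lost without *WT* replicate 1, *VC* replicate 12 or *VC* replicate 13, and that of *Xbp1* with scaling by total counts.

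Of the 16 tested inflammasome genes, 4 were higher, 6 lower and 6 did not pass, against 21.5% higher and 22.7% lower over all genes (median log2 fold change -0.54). *Gsdmd*, the pore-forming substrate of both caspases, had 1024, 1205 and 1107 counts in *WT* and 2323, 2521 and 2594 in *VC* libraries. It rose from 71.7 ± 8.67 to 146 ± 8.51 CPM (SD, n = 3), log2 fold change 1.03 ± 0.11 (SE, edgeR adjusted p = 0.000287). *Pycard* (ASC), the adaptor that binds caspase-1, looked up after the values were seen, rose from 16.6 ± 0.288 to 24.7 ± 4.64 CPM (log2 fold change 0.58 ± 0.16 SE, edgeR adjusted p = 0.0195), and lost the call without *WT* replicate 1 or *VC* replicate 13.

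Of the sensors that passed, *Nlrp3*, *Naip2*, *Naip5* and *Naip6* were lower and *Nlrp1b* and *Mefv* higher. *Nlrp1b* had only 5, 2 and 2 counts in *WT* and 17, 37 and 10 in *VC* libraries. *Mefv* had 13, 8 and 21 in *WT* and 59, 53 and 25 in *VC* libraries. Neither had at least 10 counts in every library. *Nlrp3*, also looked up after the values were seen, had 1021, 1435 and 418 counts in *WT* and 179, 82 and 31 in *VC* libraries. It fell by 3.46 on the log2 scale (SE 0.66, edgeR adjusted p = 0.00448). *Nek7*, which NLRP3 needs to assemble, fell from 199 ± 23.9 to 99.7 ± 7.26 CPM (log2 fold change -0.998 ± 0.11 SE, edgeR adjusted p = 0.000412). *Naip5* and *Naip6*, which sense flagellin, fell by 1.21 and 0.96 on the log2 scale (edgeR adjusted p = 0.000194 and 0.000360), but reads can be shared among these near-identical genes and their values are uncertain. *Serpinb1a*, an inhibitor of neutrophil serine proteases, fell from 1183 ± 257 to 82.8 ± 49.1 CPM (log2 fold change -3.84 ± 0.42 SE, edgeR adjusted p = 0.000375).

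**Figure D4:**
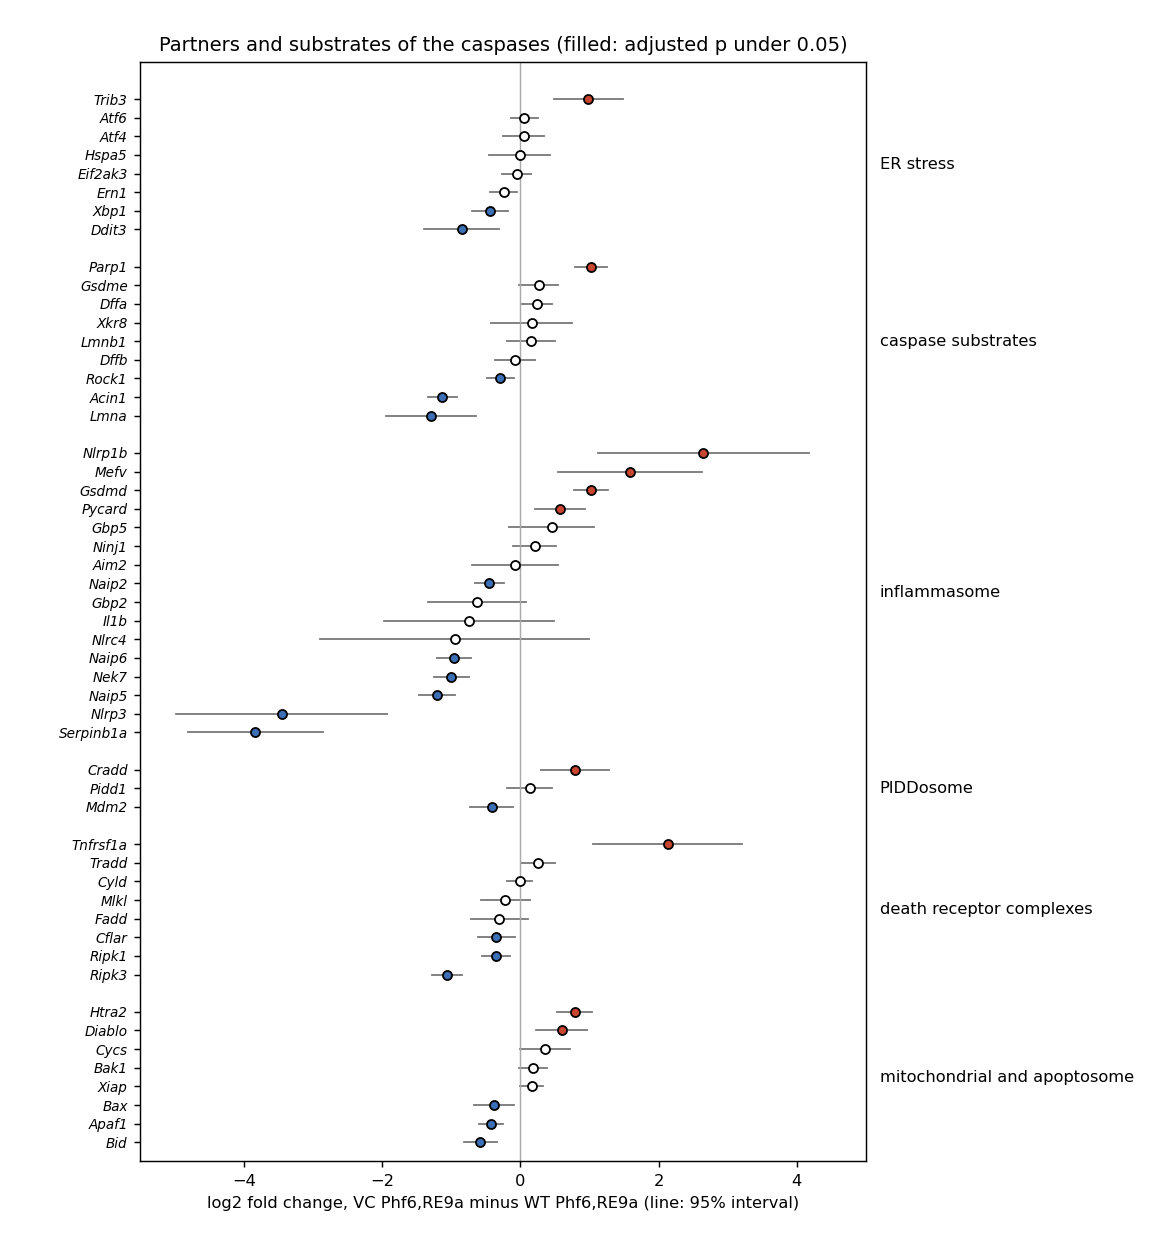
Log2 fold change (*VC Phf6,RE9a* minus *WT Phf6,RE9a*) of the tested partners and substrates of the caspases, grouped by role, with the 95% interval as a line. Filled circles passed an adjusted p of 0.05, red higher and blue lower, and every group holds calls in both directions beside genes that did not pass. *Zbp1* and *Tnfrsf10b* are left out because no library of one group had over 3 counts.

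For each caspase the tested genes with the most similar profile were found by the Euclidean distance of centred log2 CPM over the 6 libraries. They were *Ankle2* (distance 0.0697) and *Uevld* (0.0721) for *Casp2*, and *Ufm1* (0.0862) and *Zfp512b* (0.103) for *Casp8*. For *Casp9* they were *Lrba* (0.111) and *Kdm3b* (0.123), and for *Casp6* *Zfp526* (0.0741) and *Slc16a13* (0.127). The median distance of all genes from these 4 caspases was 0.82 to 0.94. The matches were poorer for the inflammatory caspases, *Gpr182* (0.499) and *Tgfbi* (0.522) for *Casp1* and *Tlr13* (0.807) and *Zc3h12d* (0.908) for *Casp4*, with median distances of 1.85 and 2.87.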

How the data were processed

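RNA-sequencing of sorted GFP+ cells in 6 libraries was taken from the authors' deposited table. The authors gave raw read counts for each gene as whole numbers, and FPKM values, scaled by gene length and library size. The deposited table also holds columns of the authors' own comparison, namely p-values, log2 fold changes and group means of normalized counts (a signal), which were not used. The submitters' processing notes name Bowtie 0.12.0 and the build mm8, but the start and end of the 7 caspases equalled those of GENCODE M21 on GRCm38, so coordinates are given on GRCm38. The counting tool and strand setting are not given in the sources used here. No column of another sample was present (0 left out).

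With edgeR 4.0.16 (R 4.3.3), low genes were dropped by filterByExpr, TMM factors were computed and the quasi-likelihood test was run, after a check on simulated counts. Log2 CPM used a prior count of 2. Intervals are 95%, and a count of 0 was taken to allow 3, which covers counting error only. Within each group every pair of libraries differed beyond sampling noise, with a chi-square of 11.8 to 46.4 per gene. Depth is given with the results. Alternatives were DESeq2 1.42.0, RLE size factors, dropping the filter, requiring 10 counts in all libraries, limma 3.58.1 on log2(FPKM + 1) and log2(FPKM + 0.1), each library left out, and total-count scaling, which was added after seeing the data. Figures used matplotlib 3.10.9.

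The members and lists were chosen with earlier results of these data known. Named genes were *Phf6*, the 7 caspases, in each list the 3 most expressed and the 3 of lowest p, and the 2 nearest profiles per caspase, with others named as looked up afterwards. Some further genes that the rule names are not reported here. Promoter windows of all 7 caspases were in the RefSeq table. Matches were meant to be printed only for members that moved together, and those printed were chosen after they were seen.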

Additional observations from a re-analysis of the deposited data

How the results depend on the processing

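Under 13 alternatives, the 6 tested caspases kept direction and side of the threshold in 64 of 78 values, lost a call in 5 and reversed in 9, all of *Casp4* or *Casp9*. The causes were not tested. *Casp4* was 0.050 with limma on log2(FPKM + 1), 0.22 with limma on log2(FPKM + 0.1) and 0.13 with total counts, and -0.47 to 1.43 over fits without 1 library. *Casp9* was -0.050 to 0.12 over those fits, *Cyld* -0.047 to 0.026, *Pidd1* -0.0023 to 0.24, *Hspa5* -0.23 to 0.11, *Atf4* -0.050 to 0.15 and *Nlrc4* -1.43 to 0.86. *Hspa5* was 0.0027 with at least 10 counts in all libraries, and with total counts 0.14, as was *Cyld* (0.14).

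Without 1 library, 0 to 1 of the 7 caspases were called higher and 0 to 1 lower, with 0 in both without *VC* replicate 11 or 12. Calls over all genes also fell in these 2 fits. They were 2179 higher and 2511 lower of 14580 genes without *VC* replicate 11, and 2193 and 2574 of 14668 without *VC* replicate 12. With all libraries they were 3047 and 3213 of 14169. Fits without 1 library called 2179 to 3132 genes higher and 2511 to 3338 lower over all genes. Over the same fits the calls were 1 to 3 higher for mitochondrial genes, 2 to 4 lower for death receptor genes, 0 to 1 in each direction for the PIDDosome, 2 to 6 higher for inflammasome genes and 1 to 3 lower for ER stress genes. With at least 10 counts, 1 death receptor gene and 2 inflammasome genes were higher, beside 2565 of 12087 genes over all. With total counts, 0 caspases, 2 death receptor genes, 0 PIDDosome genes and 1 ER stress gene were lower, and 5 mitochondrial genes and 3 substrates higher. Over all 14169 genes, 2474 were then lower and 4048 higher.

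No paired analysis was possible because the groups share no replicate numbers. Depth limits *Casp1*, *Casp4* and *Casp12*, which had under 100 counts in every library.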
